A study of Homo sapiens with 24 samples.

Results

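Control siRNA transfection was set against DMSO treatment in A549 cells, a line grown from a human lung adenocarcinoma. The comparison takes 6 of the 24 libraries of the study, 3 with control siRNA and 3 with DMSO, which were chosen by their treatment labels in the table of whole-cell RNA. Control siRNA cells received a pool of non-targeting siRNAs, short double-stranded RNAs designed to match no human transcript, at 30 nM by reverse transfection with the lipid reagent RNAiMAX. DMSO cells received the solvent, in a group that stands beside cells given compound 2, a code name for a substance labelled as a TAOK2 kinase inhibitor. All cells are labelled wild type, and each group holds 1 library from each of batches A, B and C. A second transfected group, 3 libraries with a pool of siRNAs against the kinase gene TAOK2 at 30 nM, is given beside them. Titles of all these libraries carry the word mock, which the labels do not explain. The sources used here give neither the DMSO concentration nor the times, nor whether DMSO cells received lipid reagent. The siRNA, the lipid, the solvent and the handling of the cells therefore cannot be told apart in any difference between these groups.

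The comparison sets the non-targeting arm of the knockdown against the solvent arm of the inhibitor experiment. As background, cationic lipids carry siRNA into cells by endocytosis, and the duplexes that reach the cytosol are loaded into Argonaute proteins. Long double-stranded RNA can be sensed by receptors that start an interferon response. Sterol levels in the membrane of the endoplasmic reticulum (ER) are sensed by SCAP and the INSIG proteins, which hold the SREBP transcription factors back when sterols are plentiful. Folding load in the ER is sensed by IRE1, PERK and ATF6, which raise chaperones such as HSPA5. Serum response factor (SRF) and its partner MRTF couple the pool of free actin to transcription of actin-binding proteins.

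The deposited values are TPM, each transcript's share of a fixed total corrected for its length, in which a rise of 1 class of RNA lowers all others, and they keep no read depth. Across genes, r between replicates was 0.992 to 0.997 with control siRNA and 0.987 to 0.994 with DMSO. The first principal component of the 6 libraries held 55.7% of the variance. On it control siRNA batches A, B and C lay at -20.7, -19.3 and -3.54, and DMSO batches A, B and C at 4.74, 27.3 and 11.5. Control siRNA batch C lay apart from the other control siRNA libraries on this axis, and DMSO batch B farthest from zero. The control siRNA library of batch B deviated from its group mean unlike the other libraries of batch B (r = -0.302 to -0.175). It deviated like those of batch A (r = 0.339 to 0.361). Deviations within a group cancel out, and control siRNA batch C lay apart, so those of batches A and B were bound to look alike. These r values therefore cannot tell whether the batch label of this library is right. A549 markers were present: the summed TPM of 18 such genes was 19940 to 23530 with control siRNA and 18370 to 22630 with DMSO, while CDKN2A, which this line has lost, was listed at 0 in all 6 libraries. The surfactant genes SFTPB, SFTPC and SFTPD and the lung factor NKX2-1, which define alveolar type II cells, did not pass the filter on low values. Of 14 leukocyte markers CD14 was higher (1.11, adjusted p = 0.0324) and CD68 lower (-0.50, adjusted p = 0.0219), 12 did not pass the filter, and CD3D, CD3E and MS4A1 were listed at 0 in all 6 libraries. Leukocyte markers summed to 24.8 to 25.8 TPM with control siRNA and 25.6 to 30.4 TPM with DMSO, and fibroblast and endothelial markers, none called of 2 measured, to 17.3 to 19.1 TPM with control siRNA and 8.64 to 26.3 TPM with DMSO. Their part in the results was not tested.

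More genes were higher than lower in control siRNA cells. Of 13106 genes that averaged 1 TPM or more, 566 (4.32%) were higher and 277 (2.11%) were lower with control siRNA than with DMSO at an adjusted p under 0.05. Most differences were small. Only 57 of the higher and 9 of the lower genes differed by 2-fold or more on the log2(TPM + 1) scale, while the median over all genes tested was 0.008 and the median standard error 0.109. All 843 genes had the same sign in batches A, B and C, and in 842 of them the 3 control siRNA libraries did not overlap the 3 DMSO libraries. For comparison, 16.7% of all genes tested lay above and 13.3% below all DMSO libraries in this way. The 843 genes were called on these same libraries, so their shared sign and separation are not separate support. With batch as a block 1543 genes passed, 1026 higher and 517 lower, and they held all 843. With each library centred on its median gene the split was 421 higher and 354 lower. The count depended on single libraries. Without control siRNA replicate 1 or 2 it was 165 or 117, without DMSO replicate 1, 2 or 3 it was 487, 366 or 389, and without control siRNA replicate 3 it was 825. In every one of these 6 fits 108 genes passed, 81 higher and 27 lower, and genes named here that are among them are said to pass in every leave-one-out fit. All other calls on named genes were lost in at least 1 of these fits. P-values measure the spread between libraries within all 4 whole-cell groups, of which DMSO and compound 2 carry no siRNA label. They do not extend to other stocks of A549.

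**Figure D1:**
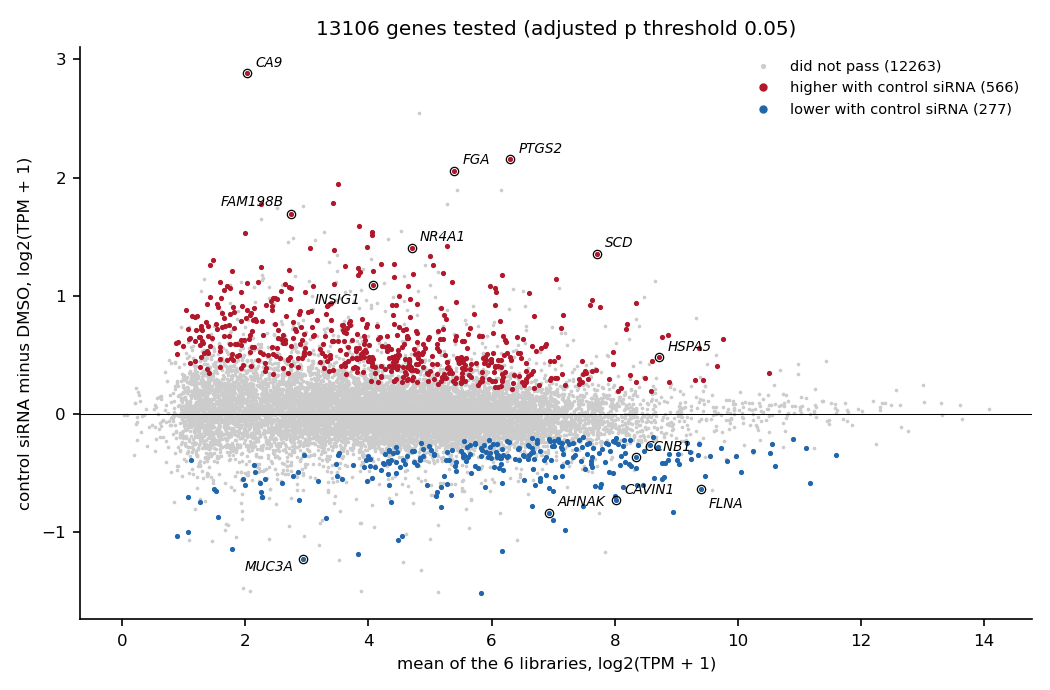
Each point is 1 of 13106 genes, with the mean log2(TPM + 1) of the 6 libraries on the x axis and control siRNA minus DMSO on the y axis; red and blue points passed the adjusted p threshold. The 566 higher genes reach larger differences than the 277 lower ones, with CA9 at 2.89 and MUC3A at -1.23.

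The genes given as marks of this comparison are the prostaglandin synthase PTGS2, the nuclear receptor NR4A1, the sterol sensor INSIG1 and the ER chaperone HSPA5. All 4 were higher with control siRNA, and in each the groups did not overlap, as in 16.7% of all genes tested that lay above. These genes were given with earlier results of these data known, so their rise is not separate support. PTGS2 (chromosome 1, 186671791 to 186680427, minus strand, GRCh38) encodes cyclooxygenase 2, the inducible enzyme that turns arachidonic acid into prostaglandin H2. It measured 178, 169.7 and 149 TPM in control siRNA batches A, B and C, against 67.2, 17.8 and 39.2 TPM in the DMSO batches. The control siRNA libraries were alike and the DMSO libraries spread widely, with batch B lowest. The log2 difference was 2.16 ± 0.53 (moderated SE, n = 3 each; limma adjusted p = 0.0433, and 0.00793 with batch as a block). This call stood close to the threshold: it held in 1 of the 6 fits that leave out a library (adjusted p = 0.032 to 0.148).

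NR4A1 (chromosome 12, 52022832 to 52059507, plus strand) encodes an orphan nuclear receptor that is transcribed within minutes of many stimuli. NR4A1 was at 41.4, 38.9 and 43.9 TPM with control siRNA, against 15.7, 12.2 and 17.4 TPM with DMSO. Both groups were tight, and the gap was the clearest of the 4: a log2 difference of 1.41 ± 0.11 (adjusted p = 0.000112), past the threshold in all 6 leave-one-out fits. INSIG1 (chromosome 7, 155297776 to 155310235, plus strand) encodes an ER membrane protein that retains SCAP with SREBP and is itself an SREBP target. INSIG1 was at 25.6, 24.6 and 20.7 TPM with control siRNA, against 8.89, 12.9 and 10.2 TPM with DMSO. It differed by 1.09 ± 0.16 on the log2 scale (adjusted p = 0.00512) and passed in all 6 leave-one-out fits.

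HSPA5 (chromosome 9, 125234853 to 125241330, minus strand) encodes BiP, the main Hsp70 chaperone of the ER lumen. HSPA5 was at 478, 478 and 536 TPM with control siRNA, against 369.5, 355 and 345 TPM with DMSO. The difference was modest and regular, 0.48 ± 0.07 on the log2 scale (adjusted p = 0.00533), and passed in all 6 leave-one-out fits. TAOK2 itself, the target of the other siRNA pool, averaged 37.6 ± 3.03 TPM with control siRNA and 39.3 ± 1.57 TPM with DMSO (SD, n = 3 each; adjusted p = 0.859). With TAOK2 siRNA it was at 10.6, 12.5 and 8.56 TPM, below every library of both other groups.

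**Figure D2:**
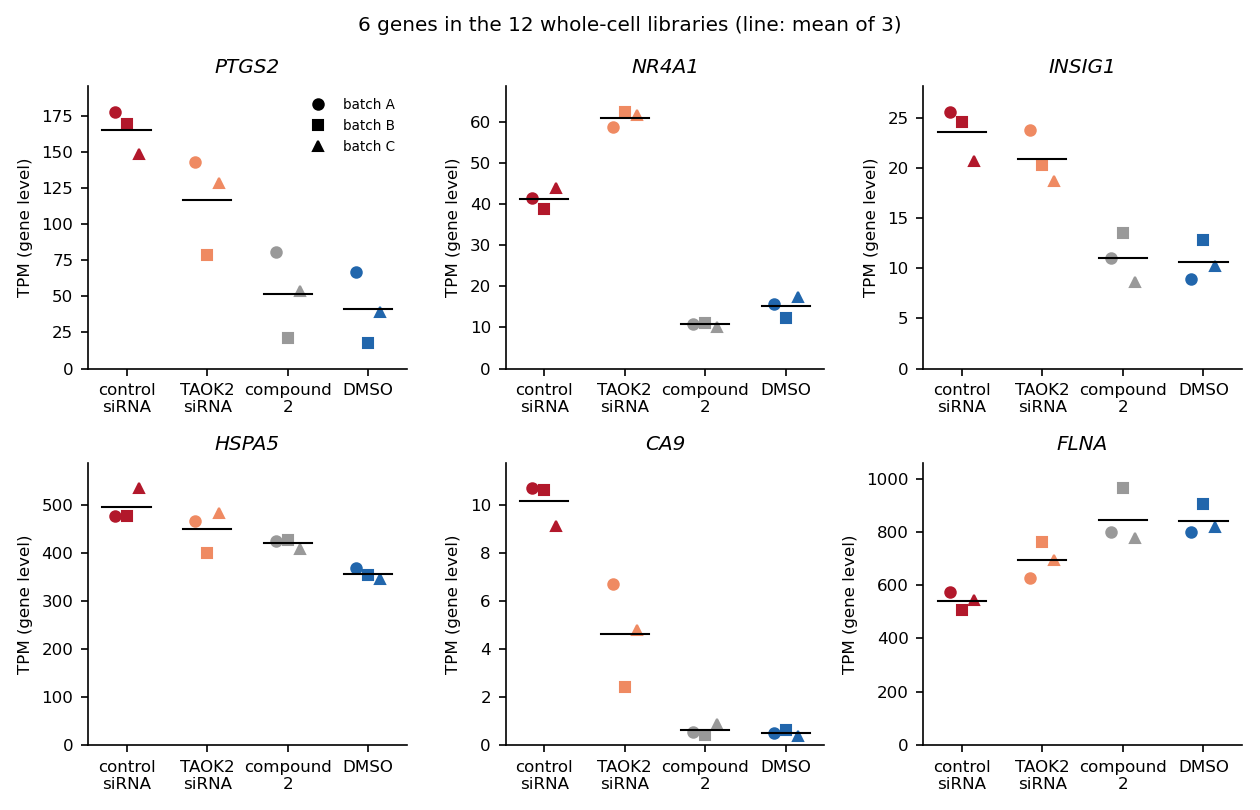
Gene-level TPM (y axis, linear from 0) of 6 genes in the 12 whole-cell libraries, by group; symbols give batches A, B and C and the line is the mean of 3. PTGS2, NR4A1, INSIG1, HSPA5 and CA9 are higher and FLNA is lower in all 3 control siRNA libraries than in all 3 DMSO libraries.

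Some genes of ER folding rose, and promoters of 4 of them are shown first. In such genes a sequence called the ER stress response element, CCAAT and CCACG held 9 bases apart, is bound by NF-Y together with ATF6 or XBP1. The windows below lie upstream of the annotated start of 4 list members that rose (RefSeq, GRCh38.p14, given 5′ to 3′ on the gene's strand), and capitals mark the element or its reverse complement.
HSPA5, chr9:125241371-125241429, minus strand: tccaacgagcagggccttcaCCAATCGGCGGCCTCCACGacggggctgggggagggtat
HSP90B1, chr12:103930196-103930359, plus strand: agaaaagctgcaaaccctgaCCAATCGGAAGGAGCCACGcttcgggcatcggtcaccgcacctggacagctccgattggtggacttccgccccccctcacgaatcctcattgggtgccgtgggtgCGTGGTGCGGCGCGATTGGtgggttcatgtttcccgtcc
CRELD2, chr22:49918534-49918592, plus strand: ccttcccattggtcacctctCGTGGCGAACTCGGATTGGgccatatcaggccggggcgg
PDIA6, chr2:10812833-10812891, minus strand: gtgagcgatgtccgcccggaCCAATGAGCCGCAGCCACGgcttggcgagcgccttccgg
HSP90B1 holds 2 copies and the others 1 each in these windows. Both strands were searched in the 250 bases before to 50 bases after each start, and 27 of 35116 human promoters (0.0769%) held the element. The 27 of 30 measured list members with a promoter sequence had 33 promoters, and a gene counted if any of them held the element. This count of genes is therefore not like the share of promoters. In this way 7 members held it. These were the 4 above, which rose, and CALR, CANX and XBP1, which did not pass the test.

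Of 30 measured genes of the unfolded protein response and ER folding, 11 were higher and 0 lower with control siRNA. The share higher was 36.7%, against 4.32% of all genes tested, of which 2.11% were lower. The median log2 difference was 0.21 against 0.008 over all genes. In 18 of the 30 all control siRNA libraries lay above all DMSO libraries, against 16.7% of all genes tested. The secreted ER factor MANF was the most regular, at 87.1, 87.8 and 84.6 TPM with control siRNA and 59.3, 60.9 and 62.5 TPM with DMSO (log2 difference 0.50 ± 0.06, adjusted p = 0.00181). PDIA4, a disulfide isomerase, was at 70.5, 62.9 and 58.7 TPM with control siRNA and 40.5, 34.0 and 40.2 TPM with DMSO, a difference of 0.73 ± 0.14 (adjusted p = 0.0135). DNAJB9, a co-chaperone raised by XBP1, differed by 0.68 ± 0.12 (adjusted p = 0.00861). The other members that rose were the chaperone HSP90B1 (0.29), the isomerases PDIA6 (0.27) and PDIA3 (0.19), CRELD2 (0.59), the co-chaperones DNAJB11 (0.33) and SDF2L1 (0.51), and the COPII coat gene SEC24D (0.42). XBP1 itself stood at 0.57 ± 0.16 (adjusted p = 0.0542, and 0.0286 with batch as a block). HSPA5 and MANF passed in every leave-one-out fit, and the count of members higher in those fits was 3 to 12.

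In the list drawn up for the PERK and ATF4 side of the same response, no measured member was called higher. Of 37 measured genes of the integrated stress response and amino acid supply, 0 were higher with control siRNA, against 4.32% of all genes tested. In this list 2 were lower (5.41%, against 2.11%), and the median was -0.11. In 15 of the 37 all control siRNA libraries lay below all DMSO libraries and in 1 above, against 13.3% and 16.7% of all genes tested. With batch as a block 4 were lower, against 517 of all 13106 genes tested. ATF4, its central factor, averaged 449.9 ± 7.47 TPM with control siRNA and 451.5 ± 9.35 TPM with DMSO (adjusted p = 0.971). DDIT3, which encodes the proapoptotic factor CHOP, was at 126, 129.9 and 139 TPM with control siRNA and 156, 137 and 113 TPM with DMSO, so the groups overlapped. GTPBP2 (-0.44, adjusted p = 0.0215) and the amino acid carrier subunit SLC3A2 (-0.32, adjusted p = 0.0221) were the members that fell. Among 22 measured heat shock genes 2 were higher (9.09%, against 4.32% of all genes tested). These were the Hsp40 gene DNAJA1 at 0.45 ± 0.06 (adjusted p = 0.00355) and HSPA8 at 0.65 (adjusted p = 0.0304), which encodes the constitutive cytosolic Hsp70. DNAJA1 passed in every leave-one-out fit and HSPA8 in 1 of 6.

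Among lists with at least 10 measured members, sterol genes had the largest share of higher members. Of 28 measured genes of cholesterol synthesis and SREBP regulation, 12 were higher and 1 was lower with control siRNA. These shares were 42.9% and 3.57%, against 4.32% and 2.11% of all genes tested. The median log2 difference was 0.33. In all, 20 of 28 lay above all DMSO libraries, against 16.7% of all genes tested. The 12 higher members included both SREBP genes, the sensor INSIG1 and several enzymes of the pathway. SREBF1, which encodes the factor for fatty acid genes, was at 165, 149 and 106 TPM with control siRNA and 79.1, 55.2 and 70.0 TPM with DMSO (1.02 ± 0.21, adjusted p = 0.0192, past the threshold in 2 of 6 leave-one-out fits). The control siRNA library of batch C was the lowest of its group and lay nearest the DMSO values. SREBF2, the factor for sterol genes, was at 64.8, 61.1 and 46.6 TPM with control siRNA and 38.9, 35.3 and 36.1 TPM with DMSO (0.62 ± 0.12, adjusted p = 0.0145).

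The enzymes that rose included IDI1, which isomerises isopentenyl diphosphate (0.35), squalene synthase FDFT1 (0.46) and squalene epoxidase SQLE (0.43). The late enzymes MSMO1 (0.29), TM7SF2 (0.62) and DHCR7 (0.65) and the sterol carrier STARD4 (0.62) also rose. HMGCS1, the synthase near the start of the pathway, did not pass (0.20, adjusted p = 0.524). PMVK, the phosphomevalonate kinase, fell by 0.24 (adjusted p = 0.0361). INSIG1 passed in every leave-one-out fit, and the members higher numbered 10 without control siRNA replicate 3 and 4 without DMSO replicate 2, within a range of 1 to 10.

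**Figure D3:**
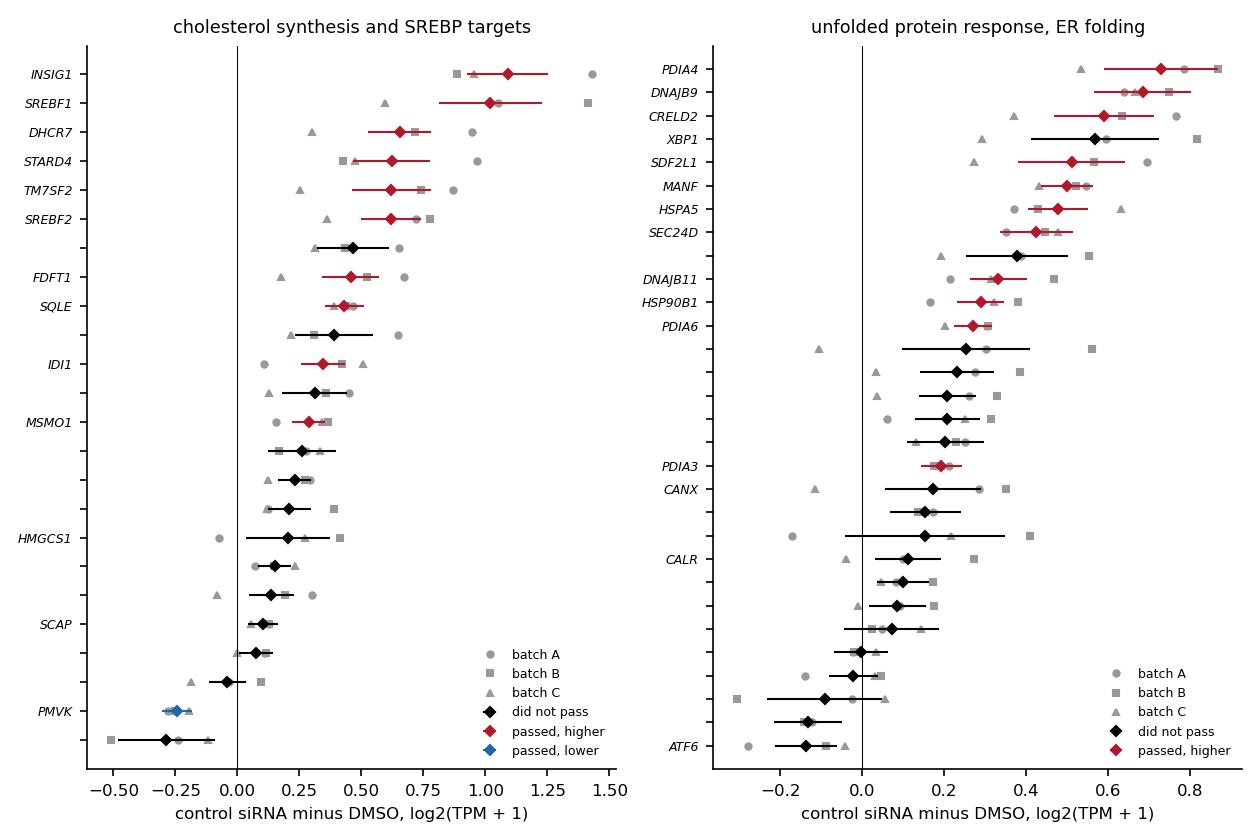
Control siRNA minus DMSO on the log2(TPM + 1) scale (x axis) for 24 of the 28 measured genes of the cholesterol list (left) and all 30 of the ER list (right), with names for genes described in the text; grey symbols are batches A, B and C, diamonds the fitted difference with its moderated SE. Of the genes drawn, 10 sterol and 11 ER genes passed as higher (red), and the blue diamond is PMVK.

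Some fatty acid genes changed as well. Of 23 measured genes of fatty acid synthesis and desaturation, 7 were higher and 2 lower. These shares were 30.4% and 8.70%, against 4.32% and 2.11% of all genes tested. In the leave-one-out fits 2 to 8 were higher and 0 to 2 lower. SCD, the desaturase that makes oleate from stearate, was at 389.5, 379.8 and 249.7 TPM with control siRNA and 133, 138 and 118 TPM with DMSO. All 3 control siRNA libraries stood clear of the DMSO group, with batch C lowest among them (1.36 ± 0.16, adjusted p = 0.00168, past the threshold in all 6 leave-one-out fits). FADS2, the desaturase that starts the making of polyunsaturated fatty acids, followed at 307, 299.6 and 202 TPM with control siRNA and 131, 142 and 145 TPM with DMSO (0.92 ± 0.14, adjusted p = 0.00608), and it too passed in every leave-one-out fit. SCD5 (0.75), ACSL3 (0.52), FADS1 (0.48), the synthase FASN (0.41) and ELOVL5 (0.27) were higher as well. ELOVL1, which elongates saturated chains, was lower at -0.40 (adjusted p = 0.0126), and so was DGAT2, which makes triglycerides, at -0.55 (adjusted p = 0.0206).

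Some LXR targets and lysosomal genes were higher. Of 14 measured LXR targets and sterol exporters 4 were higher (28.6%, against 4.32% of all genes tested) and 0 lower (against 2.11%). With batch as a block 8 were higher, against 1026 of all 13106 genes tested, and in the leave-one-out fits 1 to 6. ABCA1, which exports cholesterol, was at 6.07, 5.75 and 6.73 TPM with control siRNA and 3.46, 3.98 and 3.39 TPM with DMSO (0.64 ± 0.10, adjusted p = 0.00608). The others were ABCA2 (0.46), LPCAT3 (0.46) and the receptor gene NR1H3 itself (0.52). Of 33 lysosomal genes 7 were higher (21.2%, against 4.32% of all genes tested) and 0 lower. With batch as a block 13 were higher, and in the leave-one-out fits 1 to 7. CTSB, a lysosomal cysteine protease, was at 288, 278 and 302 TPM with control siRNA and 203, 225 and 219.6 TPM with DMSO (0.42 ± 0.05, adjusted p = 0.00206). Of 17 measured genes of lipid droplets and lipid breakdown 3 were higher (17.6%) and 0 lower, with a median of 0.01. Among them LIPA, the lysosomal acid lipase that frees cholesterol from esters, differed by 0.39 ± 0.06 (adjusted p = 0.00608), and ABCA1, CTSB and LIPA each passed in all 6 leave-one-out fits. GPNMB (0.66), RRAGD (0.51), CTSA (0.36), PSAP (0.28) and SCARB2 (0.27) were among the higher lysosomal members, with small differences. Of 26 autophagy genes 3 were higher, among them the receptor SQSTM1 (0.64, adjusted p = 0.0316), and 1 was lower. These shares were 11.5% and 3.85%, against 4.32% and 2.11% of all genes tested. The E-box CACGTG, a motif bound by SREBP and TFEB factors among others and alike on both strands, was in 2548 of 35116 promoters (7.26%). A gene counted if any of its promoters held the E-box, so counts of genes are not like this share of promoters. It was in 4 of 21 sterol genes with a promoter sequence (27 promoters), of which INSIG1 rose and 3 did not pass. It was also in 10 of 23 lysosomal genes (35 promoters), of which CTSA rose and 9 did not pass.

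Genes that answer to low oxygen gave the largest single difference. Of 31 measured genes of hypoxia and glycolysis 9 were higher and 1 was lower, against 3 to 7 higher in the leave-one-out fits. CA9, a surface carbonic anhydrase widely used as a mark of HIF activity, was at 10.7, 10.6 and 9.09 TPM with control siRNA and 0.504, 0.638 and 0.380 TPM with DMSO. It was nearly silent in every DMSO library, and the log2(TPM + 1) difference of 2.89 ± 0.23 (adjusted p = 0.000141) was the largest among all 843 genes. With compound 2 it was at 0.526, 0.433 and 0.894 TPM. It thus passed the filter of 1 TPM only through the transfected groups, with means of 10.1 TPM (control siRNA) and 4.63 TPM (TAOK2 siRNA). ALDOC, a glycolytic aldolase, was at 10.3, 9.16 and 5.08 TPM with control siRNA and 1.49, 1.77 and 1.53 TPM with DMSO (1.77 ± 0.27, adjusted p = 0.00535). SLC2A3, the glucose carrier GLUT3, was at 89.7, 84.6 and 98.7 TPM with control siRNA and 48.8, 41.7 and 52.8 TPM with DMSO (0.92 ± 0.11, adjusted p = 0.00168). These 3 passed in all 6 leave-one-out fits. EGLN3, a HIF prolyl hydroxylase, P4HA1, HIF1A, PGK1, ENO2 and PFKL were higher by 0.98, 0.38, 0.33, 0.30, 0.31 and 0.28, and PFKP was lower at -0.39.

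PTGS2 was joined by a few genes of inflammation and early response. Of 17 measured genes of prostaglandin synthesis and inflammation 3 were higher (17.6%, against 4.32% of all genes tested) and 0 lower. PLA2G4A, the phospholipase that frees arachidonic acid for PTGS2, was at 62.7, 66.3 and 59.2 TPM with control siRNA and 30.1, 14.9 and 26.3 TPM with DMSO (1.42 ± 0.29, adjusted p = 0.0195). The chemokine CXCL3 differed by 0.74 ± 0.15 (adjusted p = 0.0185), while CXCL2 stood at 0.36 (adjusted p = 0.272) and prostaglandin E synthase PTGES at 0.27 (adjusted p = 0.618). Among 19 NF-kB factors and feedback genes 2 were higher (10.5%, against 4.32%) and 0 lower. These were the deubiquitinase TNFAIP3 (0.87, adjusted p = 0.0287, kept in 1 of 6 leave-one-out fits) and SOD2 (0.39, adjusted p = 0.0206). Of 28 immediate early genes 3 were higher (10.7%, against 4.32% of all genes tested) and 1 lower (3.57%, against 2.11%). Beside NR4A1 these were its paralogue NR4A2, at 4.77, 5.26 and 5.51 TPM with control siRNA and 3.44, 2.55 and 2.74 TPM with DMSO (0.66 ± 0.11, adjusted p = 0.00628), and BTG2 (0.69, adjusted p = 0.0204). IER2 was lower (-0.56, adjusted p = 0.0334). NR4A1 and NR4A2 passed in every leave-one-out fit, and no inflammation or NF-kB member did.

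Genes of the response to foreign RNA passed at shares near those of all genes tested. Of 28 measured interferon-stimulated genes 1 was higher (3.57%, against 4.32% of all genes tested) and 0 were lower (against 2.11%), with a median of 0.06. A further 14 list entries were below the filter on low values or carry a name not in the annotation. The gene that passed was PARP9, at 4.69, 4.93 and 4.31 TPM with control siRNA and 3.17, 3.505 and 3.49 TPM with DMSO (0.36 ± 0.10, adjusted p = 0.0456), a call that was lost in all 6 leave-one-out fits. OAS1, an enzyme that binds double-stranded RNA and makes oligoadenylates, was at 22.0, 19.2 and 15.1 TPM with control siRNA and 12.2, 6.93 and 10.1 TPM with DMSO. Its groups did not overlap, and it missed the threshold (0.89 ± 0.25, adjusted p = 0.0553, and 0.0121 with batch as a block). With batch as a block 4 members of the list were higher, against 1026 of all 13106 genes tested.

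Of 16 measured double-stranded RNA sensors and adaptors 1 was higher (6.25%, against 4.32% of all genes tested) and 0 were lower, with a median of -0.02. The kinase EIF2AK2 averaged 32.6 ± 0.799 TPM with control siRNA and 33.9 ± 2.23 TPM with DMSO. Among 19 genes of the RNA interference machinery 1 was higher and 1 lower (5.26% each, against 4.32% and 2.11% of all genes tested). DICER1, which cuts microRNA precursors, was higher (0.38 ± 0.10, adjusted p = 0.038). TNRC6C, an Argonaute partner, was lower (-0.59 ± 0.14, adjusted p = 0.0265). They passed in 1 and 2 of the 6 leave-one-out fits. AGO2, the slicing Argonaute, was at 36.8, 33.3 and 39.6 TPM with control siRNA and 46.1, 41.3 and 44.5 TPM with DMSO, which did not pass (-0.26, adjusted p = 0.294).

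Genes of the actin cytoskeleton and of mitosis had the largest shares of lower members among lists with at least 10 measured members. Of 28 measured SRF targets and actin genes 9 were lower and 1 was higher with control siRNA, with a median log2 difference of -0.37. These shares were 32.1% and 3.57%, against 2.11% lower and 4.32% higher of all genes tested. In all, 16 of 28 lay below all DMSO libraries, against 13.3% of all genes tested. With batch as a block 14 were lower, against 517 of all 13106 genes tested. FLNA, which encodes the crosslinker filamin A, was at 573, 505 and 543 TPM with control siRNA and 800.5, 906 and 819.6 TPM with DMSO. The groups were far apart relative to their spread (-0.64 ± 0.09, adjusted p = 0.00456). The nonmuscle myosin heavy chain MYH9 (-0.61), the tropomyosins TPM4 (-0.43) and TPM3 (-0.26), TAGLN2 (-0.40), ACTN4 (-0.35), beta-actin ACTB (-0.35) and FHL2 (-0.46) were among the others that fell. Smooth muscle actin ACTA2 was higher at 0.52 ± 0.13 (adjusted p = 0.0343). TAGLN, a classical SRF target, showed how much the DMSO libraries differed among themselves: it was at 11.8, 12.2 and 20.3 TPM with control siRNA and 14.3, 104.9 and 29.3 TPM with DMSO (adjusted p = 0.428). FLNA, MYH9, TPM4 and TAGLN2 passed in every leave-one-out fit, and the members lower numbered 5 to 9 in those fits.

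SRF binds the CArG box, a run of CC, 6 bases of A or T, and GG. The windows below lie upstream of the start of 2 members that fell (RefSeq, GRCh38.p14, 5′ to 3′ on the gene's strand), with the box in capitals.
FLNA, chrX:154374699-154374748, minus strand: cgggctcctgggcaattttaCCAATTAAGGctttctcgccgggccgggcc
TPM4, chr19:16067345-16067394, plus strand: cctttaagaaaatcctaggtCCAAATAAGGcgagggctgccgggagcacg
The box, which reads the same on both strands, was in 454 of 35116 promoters (1.29%). The 24 list members with a promoter sequence had 57 promoters, and a gene counted if any of them held the box. This count of genes is therefore not like the share of promoters. In this way 8 of the 24 held it. Of the 8, FLNA, TPM4 and FHL2 were lower with control siRNA and 5 did not pass.

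A few matrix and membrane genes were lower. LAMB3 encodes a laminin chain of the basement membrane and ITGA3 an integrin chain that binds laminin. LAMB3 was at 11.98, 11.8 and 12.3 TPM with control siRNA and 19.9, 14.5 and 16.5 TPM with DMSO (-0.45 ± 0.12, adjusted p = 0.0391). ITGA3 was at 194, 173 and 244 TPM with control siRNA and 298, 348 and 338 TPM with DMSO (-0.70 ± 0.11, adjusted p = 0.0069). ITGA5, a chain of the fibronectin receptor, went the other way (0.66 ± 0.08, adjusted p = 0.00206). The matrix list as a whole held 3 lower and 1 higher of 31. These shares were 9.68% and 3.23%, against 2.11% lower and 4.32% higher of all genes tested. ITGA3 and ITGA5 passed in every leave-one-out fit.

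CAVIN1, CAV1 and CAV2, which shape caveolae, small pits of the plasma membrane, were all lower. CAVIN1, their coat protein, was at 192, 185 and 230 TPM with control siRNA and 319, 346 and 339 TPM with DMSO (-0.73 ± 0.10, adjusted p = 0.00409, past the threshold in all 6 leave-one-out fits). CAV1 stood at -0.55 ± 0.10 (adjusted p = 0.01) and CAV2 at -0.60 ± 0.12 (adjusted p = 0.0191). In all, 4 were lower and 1 higher of 30 measured genes of endocytosis and membrane repair, CLTB being the fourth. These shares were 13.3% and 3.33%, against 2.11% lower and 4.32% higher of all genes tested. KRT7, KRT80 and VIM, filament genes, were lower by 0.59, 0.39 and 0.49, and the epithelial cadherin CDH1 stood at 1.04 ± 0.32 (adjusted p = 0.0785, and 0.0127 with batch as a block).

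The differences in genes of mitosis were small. Of 43 measured G2/M genes 0 were higher and 14 lower (32.6%, against 2.11% of all genes tested), with a median of -0.26. In all, 25 lay below all DMSO libraries, against 13.3% of all genes tested. In bulk RNA a smaller share of cells in mitosis and less of these RNAs per cell cannot be told apart. CCNB1, the cyclin of mitotic entry, was at 274, 278 and 300.0 TPM with control siRNA and 371, 354 and 377 TPM with DMSO (-0.37 ± 0.06, adjusted p = 0.00608, past the threshold in all 6 leave-one-out fits). TOP2A, which untangles DNA, was at 258, 278 and 299 TPM with control siRNA and 382, 352 and 416 TPM with DMSO (-0.46 ± 0.08, adjusted p = 0.0104). The kinetochore motor CENPE stood at -0.60 ± 0.11 (adjusted p = 0.0135), KIF4A at -0.41 and UBE2C at -0.40. The members lower numbered 10 without control siRNA replicate 3 and 13 without DMSO replicate 2, and 1 to 13 over all leave-one-out fits.

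S-phase genes passed at shares near those of all genes tested. Of 47 measured genes of DNA replication 3 were higher, MCM3, MCM5 and RPA2 (6.38%, against 4.32% of all genes tested). In this list 1 was lower (2.13%, against 2.11%), the ribonucleotide reductase subunit RRM2 (-0.47 ± 0.09, adjusted p = 0.0128). Of 30 ribosome biogenesis genes 4 were lower (BOP1, DKC1, NCL and NOP58, between -0.30 and -0.24), or 13.3% against 2.11%. None of 79 ribosomal protein genes, 13 mitochondrial messenger RNAs or 44 spliceosome genes passed in limma, and with batch as a block 1, 0 and 2 of them did. At an unadjusted p under 0.05 the counts were 4, 1 and 8, against 2872 of all 13106 genes tested. CCNG1, a p53 target, was higher at 0.68 ± 0.08 (adjusted p = 0.00168) and in every leave-one-out fit. Of 29 measured p53 targets 3 were higher (10.3%, against 4.32% of all genes tested).

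**Figure D4:**
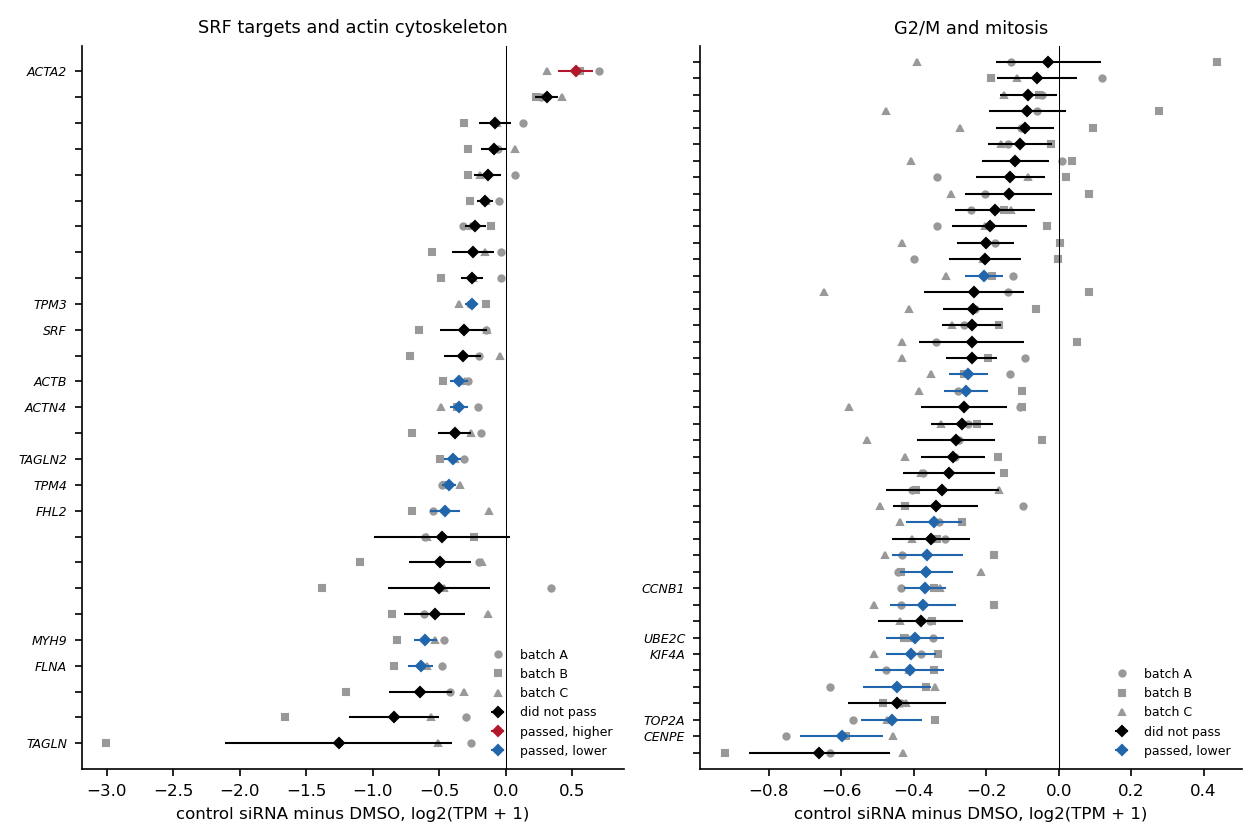
Control siRNA minus DMSO on the log2(TPM + 1) scale (x axis) for 27 of the 28 measured genes of the SRF and actin list (left) and all 43 of the G2/M list (right), drawn as in the plot of sterol and ER genes. Of the genes drawn, 8 actin and 14 mitotic genes passed as lower (blue); the wide bar of TAGLN comes with a batch B difference far from those of batches A and C.

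**Figure D5:**
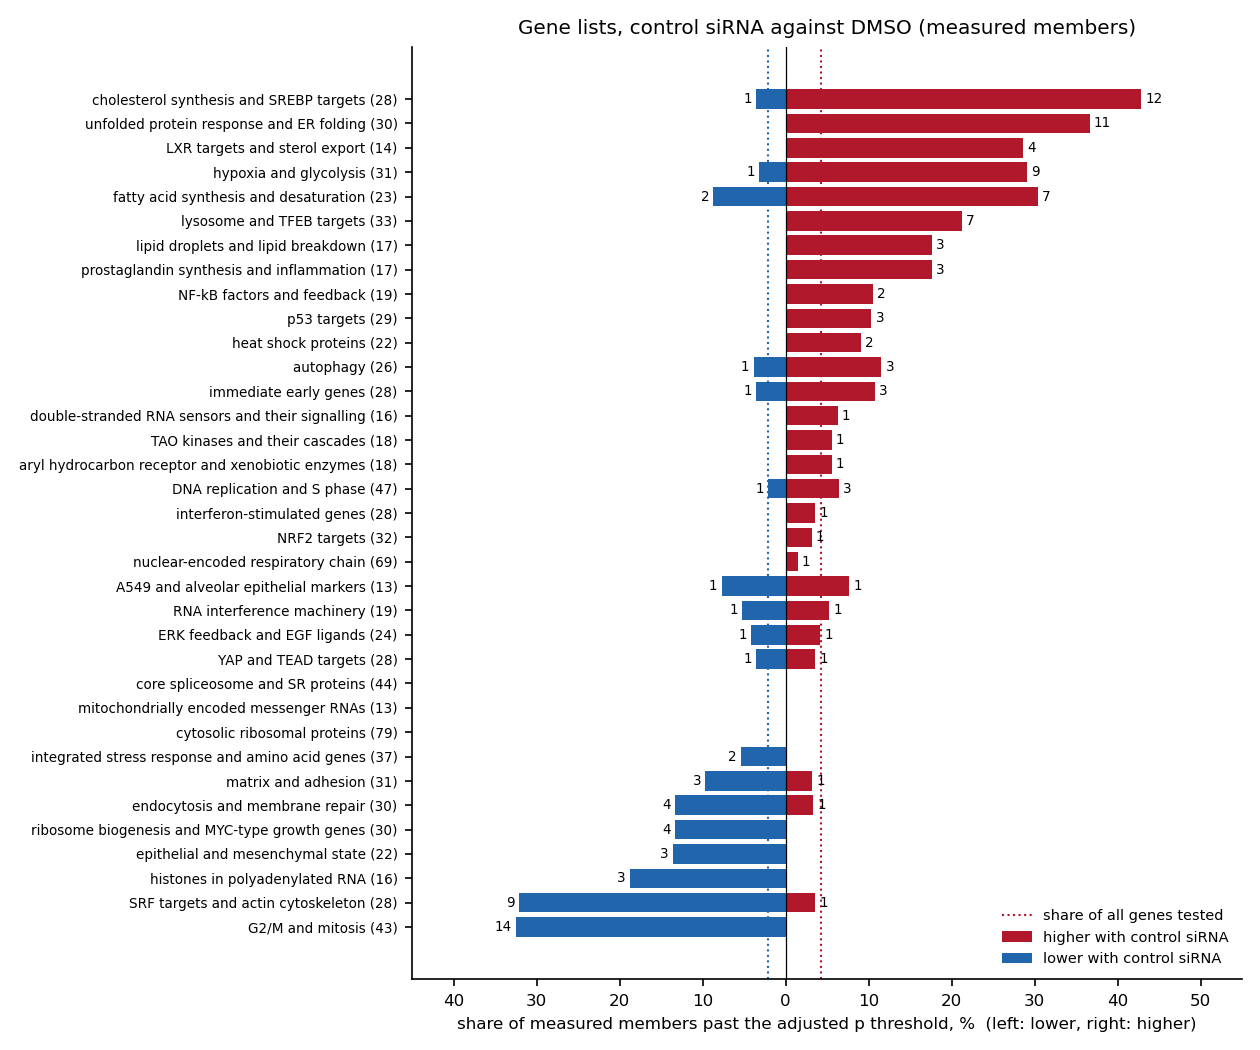
Share of measured members that passed the adjusted p threshold (x axis, %; higher to the right, lower to the left) for each list with at least 10 measured members (number in brackets); numbers at the bars are counts and dotted lines are the shares of all genes tested, 4.32% and 2.11%. The sterol, ER, fatty acid, hypoxia and LXR lists lie farthest to the right, and the SRF and G2/M lists farthest to the left.

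Among genes that averaged 5 TPM or more, the 15 largest rises included PTGS2, FGA, FAM198B, ANG, INSL4, RNASE4, PLA2G4A, GALNT4, NR4A1, TM4SF20, EHF, SCD, MAP2K6 and SLC29A4, all at 1.26 or more on the log2 scale. FGA, a fibrinogen chain of the acute phase, was at 99.3, 104.8 and 58.3 TPM with control siRNA and 34.3, 10.2 and 21.02 TPM with DMSO (2.06 ± 0.51, adjusted p = 0.0436). Its partner chains FGB and FGG stood at 1.90 each and missed the threshold (adjusted p = 0.0745 and 0.0557), and passed with batch as a block (0.0244 and 0.0233). MAP2K6, a kinase that activates p38 and lies downstream of TAO kinases, was at 52.5, 55.3 and 42.9 TPM with control siRNA and 26.9, 14.7 and 17.8 TPM with DMSO (1.34 ± 0.21, adjusted p = 0.00713). ANG and RNASE4 are secreted ribonucleases of 1 locus with overlapping transcripts, so their values (1.59 and 1.52) are not independent. FAM198B, NR4A1, SCD, MAP2K6 and SLC29A4 passed in every leave-one-out fit, 5 of the 15.

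The 15 largest falls included MUC3A, CCBE1, SYNE1, CDK7, ZNF185, TUBA4A, EGFR, GAL, AHNAK, TNFRSF12A, PLCB4, EPB41L2, CORO1C and SH2D3A, all at -0.74 or below. EGFR, the receptor for epidermal growth factor, was at 87.4, 78.1 and 116 TPM with control siRNA and 164, 212 and 151 TPM with DMSO (-0.90 ± 0.20, adjusted p = 0.0263, past the threshold in 2 of 6 leave-one-out fits). MUC3A, a membrane mucin, was at 3.66, 3.93 and 4.45 TPM with control siRNA and 9.31, 10.7 and 12.3 TPM with DMSO (-1.23 ± 0.15, adjusted p = 0.00175). ZNF185, an actin-binding LIM protein, was at 15.6, 15.6 and 15.02 TPM with control siRNA and 32.4, 37.2 and 28.5 TPM with DMSO (-1.03 ± 0.12, adjusted p = 0.00168). AHNAK, a very large scaffold at the membrane and actin cortex, stood at -0.84 ± 0.11 (adjusted p = 0.00219). MUC3A, ZNF185 and AHNAK passed in every leave-one-out fit, 3 of the 15.

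TAOK2 siRNA, the second transfected group, was set against the same DMSO libraries, so the values of both comparisons share their reference and are not independent. More genes passed: 1773 (13.5%) were higher and 2394 (18.3%) lower than with DMSO. NR4A1 was at 58.7, 62.5 and 61.7 TPM with TAOK2 siRNA (1.96 over DMSO, and 0.55 over control siRNA, adjusted p = 0.00399). PTGS2 was at 143, 78.7 and 129 TPM, INSIG1 at 23.8, 20.3 and 18.7 TPM and HSPA5 at 468, 400.0 and 485 TPM with TAOK2 siRNA, each above every DMSO library. TAOK2 siRNA minus control siRNA in these 3 gave -0.54, -0.17 and -0.14 on the log2 scale (adjusted p = 0.511, 0.493 and 0.181).

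Other genes did differ between the transfected groups. CA9 was at 6.68, 2.43 and 4.79 TPM with TAOK2 siRNA, 1.06 lower on the log2 scale than with control siRNA (adjusted p = 0.00748), and ABCA1 at 3.10, 3.32 and 3.64 TPM, 0.72 lower (adjusted p = 0.000532). FLNA stood at -0.28 (adjusted p = 0.0385) and TPM4 at 0.14 (adjusted p = 0.0522) for TAOK2 siRNA minus DMSO. In that comparison 13.5% of all genes tested were higher and 18.3% lower. Of the 28 actin genes 4 were higher and 4 lower in it, near those shares. Of the 28 sterol genes 15 were higher and 2 lower, and of the 30 ER genes 14 were higher and 3 lower. Of 43 G2/M genes 38 were lower, with a median of -0.54.

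Few transcripts changed their share of their gene. Of 39492 transcripts tested in 8774 genes 3 passed (0.0076%), while 2571 had an unadjusted p under 0.05. IGSF11-202, a transcript of the adhesion gene IGSF11, took 30.5%, 32.8% and 31.6% of its gene's TPM with control siRNA and 50.9%, 49.9% and 52.3% with DMSO (adjusted p = 0.0452). PARD3-205, of the polarity gene PARD3, took 13.2%, 16.5% and 4.35% with control siRNA and 0.0134%, 0.0399% and 0.232% with DMSO (adjusted p = 0.0418). None of the 3 passed with batch as a block (adjusted p = 0.105 to 0.139).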

How the data were processed

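Polyadenylated RNA of A549 cells was sequenced in 150 bp pairs, per the labels' protocols. The authors deposited transcript abundances in TPM, computed with kallisto (version not given in the sources used here) on GRCh38.p14, per the submitters' processing notes; TPM keeps no depth, so no counting interval is given. The 188753 transcripts were matched to GENCODE 29 (169797 matched, 97.45% to 97.57% of TPM) and summed to 35579 genes. Genes averaging 1 TPM or more in the 12 whole-cell libraries were tested on log2(TPM + 1) with limma 3.58.1 (statmod 1.5.0, R 4.3.3): group means over all 4 groups, trend and robust moderation, Benjamini-Hochberg at 0.05. Fold changes on this scale understate those of low genes. Transcript shares were tested on log2 odds with 0.5 TPM added. Batch pairing comes from the labels; residuals of same-batch control siRNA and DMSO libraries correlated at 0.278, -0.302 and -0.026 in A, B and C, and batch as a block is an alternative.

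Members, the 38 gene lists and tests were chosen with earlier results of these data known. Named genes are the 15 largest rises and falls (adjusted p under 0.05, mean of at least 5 TPM, same sign in all batches), the 4 marks, the TAO kinases and, in each list, the 6 members of smallest adjusted p; further list members were named after their values were seen, to complete counts. Scripts were tested on simulated data. The fractionation libraries hold no DMSO group and were not used. Some named members and 1 transcript are not reported here.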

Additional observations from a re-analysis of the deposited data

How the results depend on the processing

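Counts for control siRNA against DMSO moved with single settings. With batch as a replicate block 1543 genes passed (1026 higher, 517 lower), holding all 843. With no filter on low values 416 passed (301 higher, 115 lower). Leaving out 1 library gave 117 to 825 genes, 88 to 579 higher and 29 to 246 lower. Fits of the 6 libraries only, a pseudocount of 0.1 TPM, a mean of at least 5 TPM and median-centred values gave 781, 761, 721 and 775, the last with 421 higher and 354 lower. The 3 transcript shares became 0 with the replicate block and 0 in the 6 libraries only, and 0 to 3 without 1 library. The cause of these shifts was not tested. TAOK2 siRNA against DMSO gave 3309 to 4940 genes under these settings other than the fit of the 6 libraries only, which was not run for it; they were added after seeing the data. Of 128 named genes that passed, none changed sign under any of these settings, and 30 passed under every one in which they were tested. The replicate block ended none of the 128 calls and brought 44 other named genes past the threshold. Where a library was left out, the lone pair of its group was taken to vary like the other groups. With 3 libraries per group and no read depth, small differences in low genes could not be resolved.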
